A study of Saccharomyces cerevisiae BY4741 with 25 samples.

Results

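A set of 10 budding yeast genes of chromatin and transcription regulation, CHD1, IES1, YNG2, UBP3, STH1, RPD3, SRB2, CYC8, RFM1 and CTR9, was followed through the variant lists of 9 whole-genome sequencing libraries. Every call placed in one of these genes, or annotated to it by its predicted effect, was counted as a member. There were 37 such calls of 4459 calls in the 9 lists, in 10 of the 833 genes to which a call was annotated. The genes were selected on the calls and read shares of these same lists, and the classes below were set from the called shares, so shares and counts are given as descriptions with no test. No call reached a member only through an effect upstream or downstream of it.

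The libraries held genomic DNA of haploid yeast in the BY4741 background, grown to stationary phase in rich medium. The parental pool combined strains YTT66 and YTT67, the starting strains of both mating types. The 8 mutant pools came from mutants with lost repression of SIR2: RRC1 was strain YTT67_alpha25, RRC2 was YTT66_a17, RRC3 was YTT66_a19, RRC4 was YTT67_alpha5, RRC5 was YTT66_a40, RRC6 was YTT66_a296A, RRC7 was YTT66_a33 and RRC8 was YTT66_a44. Each pool joined spore clones of both mating types from a backcross, and each was 1 library with no replicate. Sample titles name rrn9 for RRC1, rrn10 for RRC2, rrn5 for RRC3 and uaf30 for RRC5, and no gene for RRC4, RRC6, RRC7 and RRC8. The description of RRC4 speaks of parental strains where both the title and the strain point to a mutant, and the library was taken as mutant RRC4. A change carried by all clones of a pool is read in nearly all reads, and a change carried by 1 in 2 clones in about 50% of them. The mutant lists held 449 to 598 calls, the parental list 447, and high-score calls (200 or more) had median depths of 60 to 71 reads, apart from 44 reads in RRC6.

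Chromatin is opened, closed and marked by protein complexes that slide nucleosomes, add or remove acetyl groups and ubiquitin on proteins, or carry signals between DNA-bound factors and RNA polymerase II. The 10 genes come from different such complexes. Chd1, Ies1 of the INO80 complex and Sth1 of the RSC complex belong to remodellers that use ATP to move nucleosomes. Yng2 is a subunit of the NuA4 histone acetyltransferase, Rpd3 is a histone deacetylase, and Rfm1 joins the deacetylase Hst1 to the DNA-binding repressor Sum1. Ubp3 is a ubiquitin protease, Srb2 a subunit of the Mediator head (also called Med20), Cyc8 the corepressor that works with Tup1, and Ctr9 a subunit of the Paf1 elongation complex. SIR2 itself encodes the deacetylase that silences the ribosomal DNA repeats, the mating-type loci and the telomeres.

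The codon of each change found in a mutant pool and not in the parental list is shown here on the coding strand, from the deposited annotation, with the changed base in capitals, because the changes are single letters and their codons show what each does to the protein.
CHD1 W1404*, RRC4: tgG to tgA
YNG2 C225Y, RRC7: tGc to tAc
UBP3 E751K, RRC7: Gaa to Aaa
STH1 A1329T, RRC1: Gct to Act
RPD3 S101N, RRC5: aGt to aAt
SRB2 S53F, RRC4: tCt to tTt
RFM1 R268K, RRC3: aGg to aAg
CYC8 H537Q, RRC4: caT to caA
CYC8 codon 529, RRC8: caG to caA
IES1 had no substituted codon. Its change was a deletion of 1 base, TC to T on the plus strand in RRC6, annotated as a frameshift from the glutamate codon gaa at residue 363. Positions below are those of the authors' files, whose genome build is not given in the sources used here.

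Of the 37 calls, 27 were parental, all of them in CTR9. The other 10 were pool-specific, meaning that the parental list held no call of the same position and alleles and that at least 10 reads covered the position. Each of these 10 stood in 1 list only, and 7 of the 8 mutant pools had at least 1. By share, 4 of the 10 were near-fixed (90% of reads or more), 2 lay above 50% with an exact interval that excluded 50%, and 4 had an interval that held 50%. Among all pool-specific calls of the 8 pools, 14.8% were near-fixed and 48.1% had an interval that held 50%, and since shares entered the choice of these genes nothing is read from the comparison. Of the 10 calls, 9 changed the protein, 1 in each of 9 genes. A protein-changing pool-specific call was found in 5.6% of protein-coding genes. RRC2 and RRC8 had no pool-specific protein-changing call in the 10 genes.

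**Figure D1:**
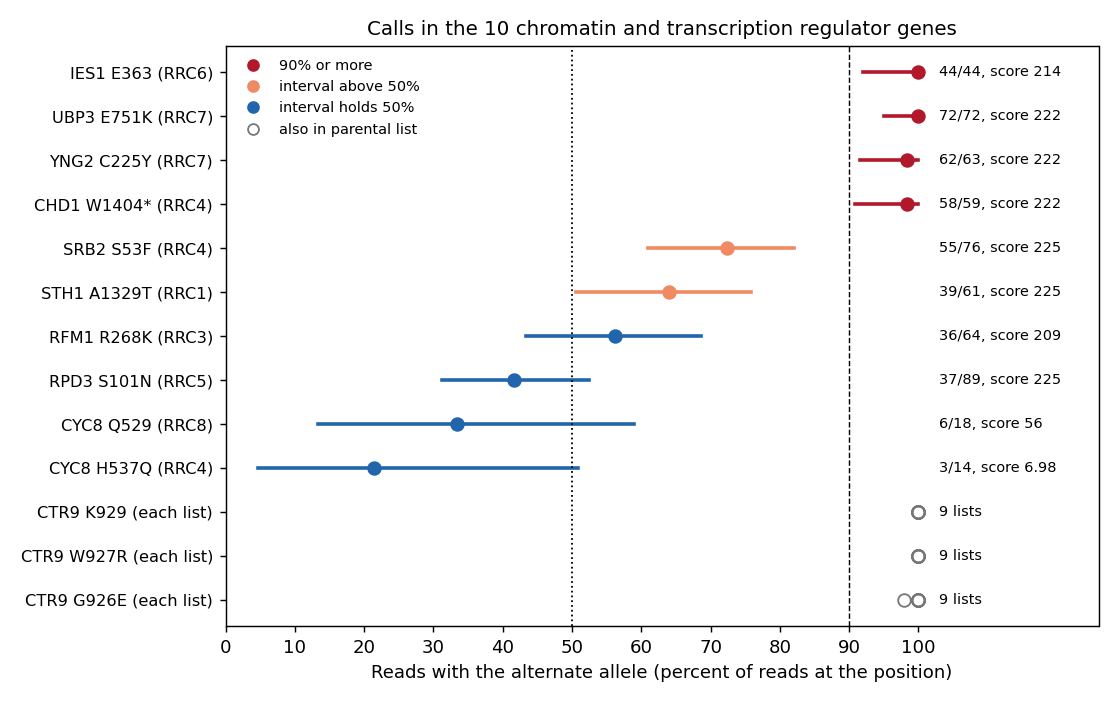
Share of reads with the alternate allele (x axis, percent) for each of the 10 pool-specific calls, with bars for the exact 95% interval of counting error, the pool at the left, reads and score at the right, and lines at 50% and 90%. CHD1, IES1, YNG2 and UBP3 sit at 98% or more, SRB2 at 72% and STH1 at 63% lie above 50%, and the intervals of RPD3, RFM1 and both CYC8 calls hold 50%; open circles show the CTR9 calls of all 9 lists at 97 to 100%.

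Near-fixed changes were found in RRC4, RRC6 and RRC7, in 4 genes. In RRC4 a premature stop in CHD1 (YER164W, plus strand, chromosome 5, position 509603, G to A) was read in 58 of 59 reads, a share of 98% (95% interval 90.9 to 100%). Chd1 spaces nucleosomes over transcribed genes, binding DNA through a domain in its carboxy-terminal part. The stop W1404* lay 95.6% of the way along a protein of 1468 residues and removed the last 65 residues, 4.43% of its length. The remaining read did not carry the alternate base, and the lists do not give the base it had. Intervals are exact Clopper-Pearson intervals from read counts, and cover counting error only, since amplified reads are not independent molecules.

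In RRC6 the frameshift in IES1 (YFL013C, minus strand, chromosome 6, position 108843) was read in 44 of 44 reads, a share of 100% (92.0 to 100%). Ies1 is a subunit of INO80, a remodeller that slides and spaces nucleosomes. The frame was lost at residue 363 of 692, 52.5% of the way along, so that 330 residues or 47.7% of the protein lay from the change to the end. It was the only deletion among the 10 pool-specific calls. RRC6 was also the library with the lowest median depth, and 44 reads equal that median.

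RRC7 held near-fixed missense changes in 2 of the genes. UBP3 E751K (YER151C, minus strand, chromosome 5, position 470174, C to T) was read in 72 of 72 reads, a share of 100% (95 to 100%). Ubp3 acts with its cofactor Bre5 and removes ubiquitin from proteins of transcription, vesicle transport and ribosome turnover, and glutamate 751, an acidic residue, was replaced by basic lysine at 82.3% of 912 residues. YNG2 C225Y (YHR090C, minus strand, chromosome 8, position 283952, C to T) was read in 62 of 63 reads, a share of 98% (91.5 to 100%). Yng2 belongs to the ING family, whose members carry a zinc-binding PHD finger near the carboxy terminus, and cysteine 225 lay at 79.8% of its 282 residues. The 2 genes are on different chromosomes, so this pool had near-fixed protein changes in regulator genes at 2 separate places of the genome.

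The near-fixed share was 10.3% of 262 pool-specific calls in RRC4, 14.4% of 153 in RRC6 and 18.5% of 151 in RRC7. A stricter set, chosen after the data were seen, kept only calls with a score of 200 or more at positions without a call in any other list. It held 158 calls in RRC4, 8 in RRC6 and 57 in RRC7, of which 1.27% in RRC4, 12.5% in RRC6 and 3.51% in RRC7 were near-fixed. All 4 near-fixed member calls were in it. In RRC6 IES1 was the only near-fixed one, in RRC7 UBP3 and YNG2 were the only ones, and in RRC4 CHD1 shared the class with ECM32 E290K, a helicase gene, at 90% of 52 reads. Over the 8 pools the stricter set had 10 near-fixed calls among 473 (2.11%), and the other 5 were in RRN9, NGL2, RRN10, RRN5 and RRS1. RRC8 had none among 37 calls (0%), beside 21% of its 119 pool-specific calls without that restriction.

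The values on either side of the 90% limit were close in some pools. ECM32 stood just inside it in RRC4, and the next share below it in that pool was 83% of 61 reads at YGR011W, a call also annotated as downstream of NMA2. In RRC7 the next share below YNG2 was 88% of 34 reads at MEH1 on chromosome 11, followed by ECM14 at 80% of 56 reads on chromosome 8. In RRC6 the next below IES1 was 62% of 54 reads.

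**Figure D2:**
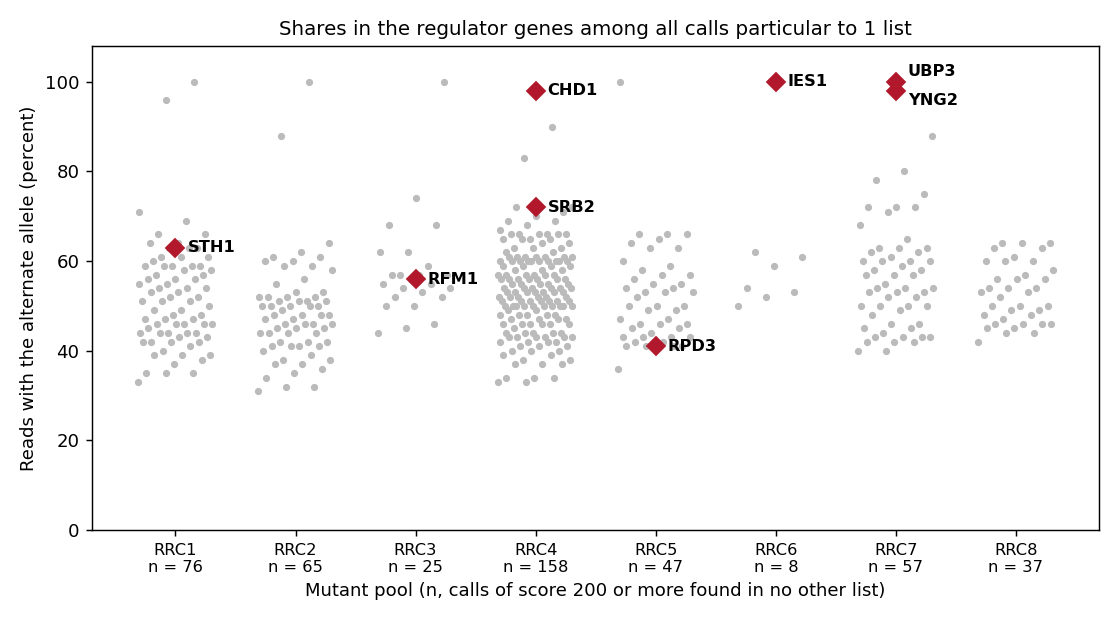
Share of reads with the alternate allele (y axis, percent) at each call with a score of 200 or more found in 1 list, by mutant pool (x axis), with calls in the regulator genes marked and named. The median was 53% in RRC4, 56.5% in RRC6 and 55% in RRC7, against 98 to 100% for CHD1, IES1, YNG2 and UBP3.

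STH1 and SRB2 had shares between the near-fixed calls and 50%. STH1 A1329T in RRC1 (YIL126W, plus strand, chromosome 9, position 121976, G to A) was read in 39 of 61 reads, a share of 63% (50.6 to 75.8%). Sth1 is the ATPase of RSC, an essential remodeller that clears nucleosomes from promoters, and its carboxy-terminal end is a bromodomain. Residue 1329 lay at 97.8% of 1359, the place closest to the protein's end among the changes with a known length. In RRC1, whose title names rrn9, the share of STH1 ranked 9 of 76 calls of the stricter set and the median was 51%.

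SRB2 S53F in RRC4 (YHR041C, minus strand, chromosome 8, position 189605, G to A) was read in 55 of 76 reads, a share of 72% (60.9 to 82.0%). Serine 53 was replaced by phenylalanine, and no protein length was derived because the annotated gene length is not a multiple of 3. Within RRC4 it ranked 4 of 158, below CHD1, ECM32 and YGR011W and level with 2 other calls at 72%, against a median of 53% and an interquartile range of 46.2 to 60%. Of the stricter set over all pools, 14.2% had a share under 90% with an interval wholly above 50%.

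RPD3 and RFM1 had shares whose intervals held 50%, with high scores. RPD3 S101N in RRC5 (YNL330C, minus strand, chromosome 14, position 19001, C to T) was read in 37 of 89 reads, a share of 41% (31.2 to 52.5%). Rpd3 removes acetyl groups from histones in a large complex at promoters and a small one over transcribed regions, and residue 101 lay at 23.3% of 433, nearest to the amino terminus among the changes with a known length. The depth was 1.41 times the median of the library, and the share ranked 42 of 47, under the pool median of 50%. RFM1 R268K in RRC3 (YOR279C, minus strand, chromosome 15, position 843828, C to T) was read in 36 of 64 reads, a share of 56% (43.3 to 68.6%). Arginine and lysine are both basic, residue 268 lay at 86.5% of 310, and 56% was also the median of RRC3. In the stricter set 79.5% of calls had an interval that held 50%.

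CYC8 had 2 calls, 24 bases apart, in different pools, and both were shallow. CYC8 H537Q in RRC4 (YBR112C, minus strand, chromosome 2, position 464160, A to T) was read in 3 of 14 reads, a share of 21% (4.7 to 50.8%), with a score of 6.98. The synonymous call at codon 529 in RRC8 (position 464184, C to T) was read in 6 of 18 reads, a share of 33% (13.3 to 59.0%), with a score of 56. Cyc8 carries long runs of glutamine, and both calls were at codons 55.6% and 54.8% of the way along its 966 residues, one creating a glutamine codon and the other leaving one a glutamine. Their depths were 0.222 and 0.3 times the library medians, the lowest 2 ratios of the 10 calls, where the other 8 had 0.937 to 1.41. A score under 10 was seen for 10.7% of pool-specific calls in RRC4, and a score under 100 for 44.5% in RRC8. The part of the low depth in these shares was not tested.

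**Figure D3:**
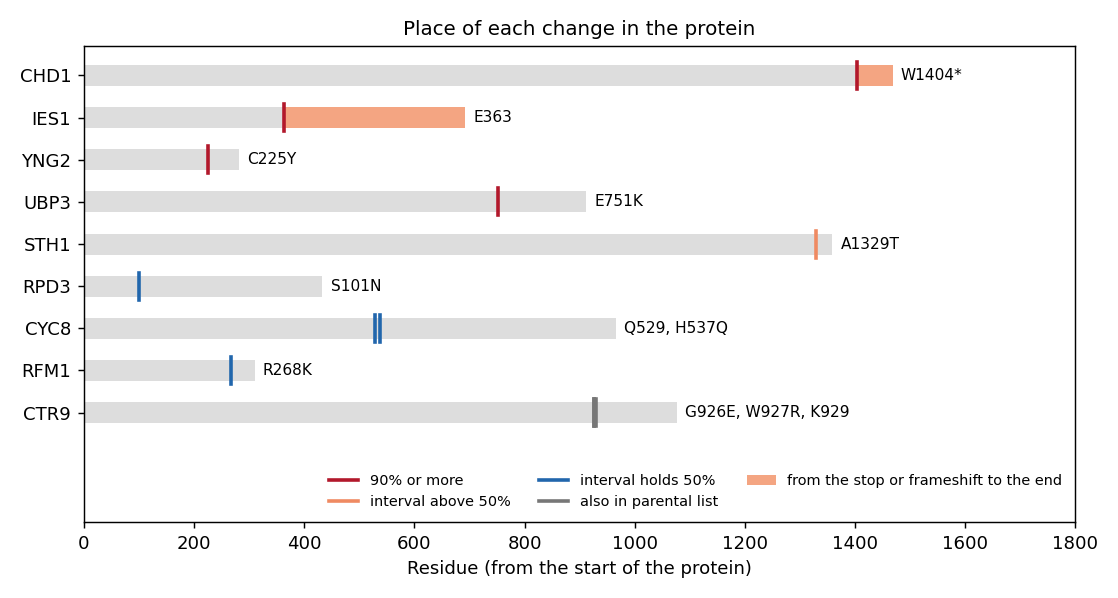
Place of each change along its protein (x axis, residue number from the start), 1 grey bar per protein to its full length, for the 9 genes whose length could be derived. CHD1 W1404* lies 65 residues from the end and the IES1 frameshift at residue 363 of 692, the coloured part marking what lies beyond each.

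Most of the changes had the base pattern common to high-score calls in all genes. Of the 8 single-base protein-changing calls, 7 were G:C to A:T, and CYC8 H537Q was the exception. Among unique single-base calls with a score of 200 or more, 98.3% were G:C to A:T, and among all pool-specific single-base calls 62.1%. Read on the coding strand, the changed base was G in 6 of the 7 and C in SRB2, against G in 158 of 228 (69.3%) comparable calls of all genes. It stood at codon position 1 in 2, position 2 in 4 and position 3 in 1, where the 228 calls had 115, 106 and 7. The CHD1 stop was the call at position 3.

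Other calls of the stricter set on the same chromosome and in the same pool gave the setting of each change. CHD1 had 10 such neighbours. ECM32, 33 kb away, was at 90%, and the other 9, 204.8 to 426.2 kb away, were at 47 to 63%. UBP3 had 1 neighbour, in MAM1, 97.7 kb away at 59%. YNG2 had 2, ECM14 85.8 kb away at 80% and YHL018W 214.2 kb away at 53%. Where both were seen, in CHD1 and YNG2, the nearest call on the chromosome had a higher share than the farther ones. For YNG2 this rests on 2 calls. The order was not particular to near-fixed changes, since STH1 had it too. SRB2, RPD3 and the CYC8 call of RRC4 did not have it. IES1 and RFM1 had no neighbour in the set.

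Among the changes with lower shares, SRB2 at 72% exceeded all 8 of its neighbours, which were at 41 to 60% with the nearest 69.9 kb away. STH1 had 2, at 58% and 42%, 90.1 and 197.8 kb away, and RPD3 had 5, at 44 to 64%, 264.1 to 571.6 kb away. The CYC8 call of RRC4 at 21% lay below all 11 of its neighbours, which were at 51 to 72%. The CYC8 call of RRC8 had 1 neighbour, in GAL10, at 46%.

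**Figure D4:**
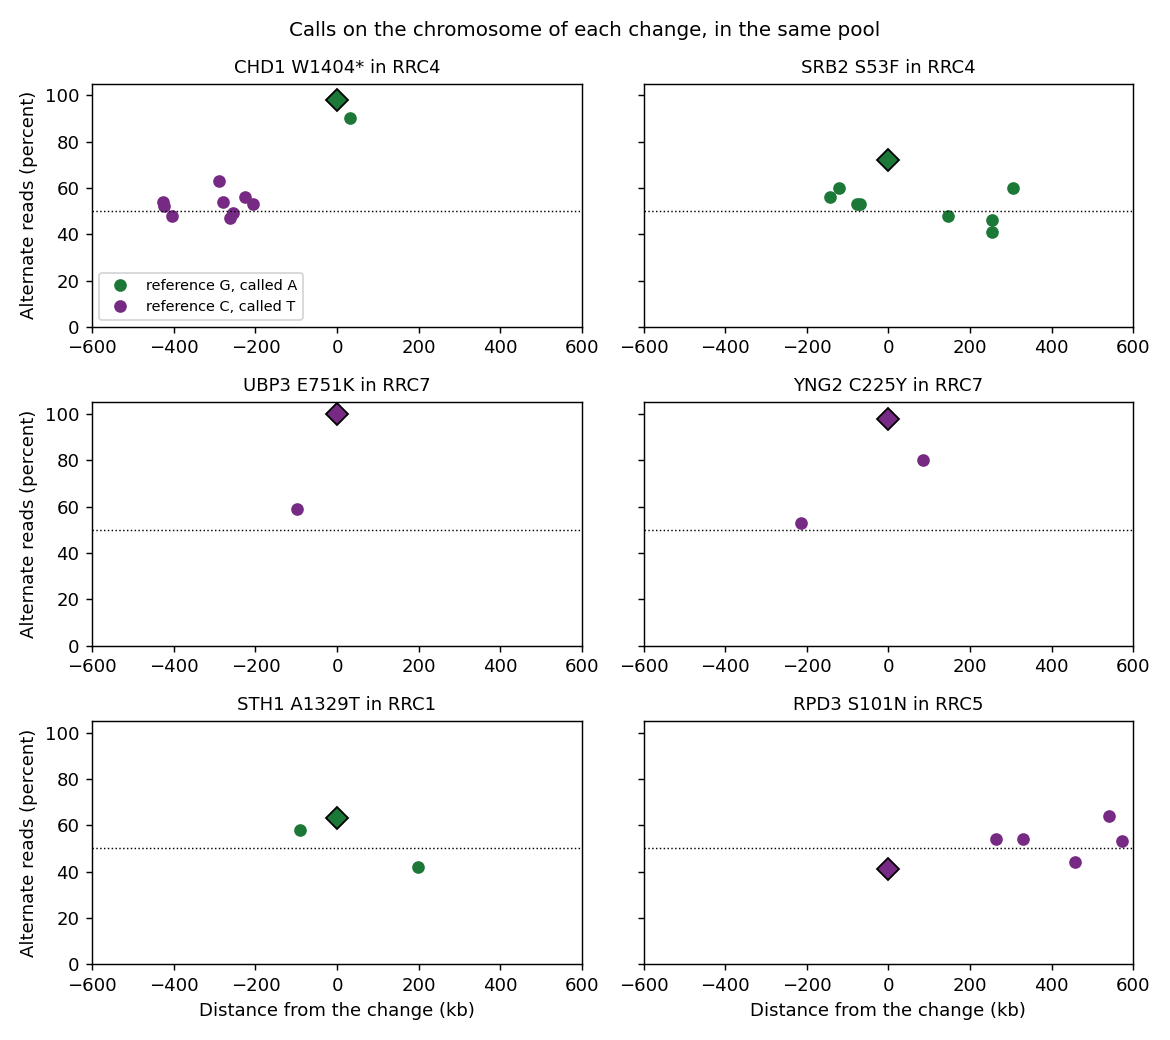
Share of reads with the alternate allele (y axis, percent) against distance in kilobases (x axis) from each regulator-gene change at 0, for the calls of the stricter set on the same chromosome and pool as 6 of the changes (diamonds), in green where the reference base was G and purple where it was C, with 50% dotted. Only ECM32, 33 kb from CHD1, and ECM14, 85.8 kb from YNG2, reach 80% or more among the neighbours.

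The strand of the changed G was compared along chromosomes, a description chosen after the data were seen. A G:C to A:T change appears in the lists either as G to A or as C to T on the plus strand. In the stricter set, on the chromosomes of 5 genes, every other such call in the pool had the same reference base as the member: 8 of 8 for SRB2, 5 of 5 for RPD3, 2 of 2 for STH1, 2 of 2 for YNG2 and 1 of 1 for UBP3. With no minimum score the counts were 8 of 9 for RPD3 and 3 of 4 for YNG2. CHD1 differed, since its reference base G was shared by 1 of 10, ECM32, and the other 9 had C. Over the members 19 of 28 neighbours in the stricter set (67.9%) had the same base. Over all pools, in the same set, 1273 of 1498 pairs of calls on 1 chromosome had the same base (85%), and 9621 of 18344 pairs on different chromosomes (52.4%). Pairs share calls and pools, so they are not independent.

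CTR9 stood apart from the other 9 genes, since its calls were parental and were the same in every library. CTR9 (YOL145C, minus strand, chromosome 15) encodes 1077 residues, and its 3 calls lay within 11 bases at about 86% of that length. Codons 926 and 927, which are adjacent, are shown on the coding strand with the changed bases in capitals, since both carry a protein change.
CTR9 codons 926 to 927, reference: gGaTgg
CTR9 codons 926 to 927, all 9 lists: gAaAgg
The call W927R (position 50010, A to T) was at 100% in all 9 lists, with 42 to 69 reads (median 57), and 0 of 488 reads had the reference base. G926E (position 50012, C to T) was at 100% in 8 lists and at 97% in RRC5, where 46 of 47 reads carried it (88.7 to 99.9%). The synonymous change at codon 929 (position 50002, C to T, aaG to aaA) was at 100% in all 9 lists, with 44 to 66 reads (median 56) and 0 of 500 reads with the reference base. The score was 222 for all 27 calls.

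These CTR9 calls therefore mark a difference between all 9 libraries and the reference sequence of the lists, and set no mutant pool apart from its parents. Whether that difference lies in the strains, the reference or the alignment was not tested. Of the 447 parental calls, 30.6% were in all 9 lists at 90% or more in each, and of the 143 protein-changing ones 35.7%, in 44 genes. Runs as dense as that in CTR9 were rarer. Only 10 single-base parental calls of that kind had 2 or more others within the same span, in 3 genes or regions, CTR9 included.

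Over 13 lists of complexes and pathways, the other genes had pool-specific protein changes at about the share of all protein-coding genes. The lists named 131 genes beside the 10. Of these, 7 (5.34%) had a protein-changing pool-specific call, beside 5.6% of all protein-coding genes. The lists of SWR1 (14 genes), SWI/SNF (12) and SAGA (19) held none of the 10 genes and none of the 7. The 5.34% is therefore not the share in the members' own complexes, which was not computed. None of the 7 was near-fixed, where 0.448% of all protein-coding genes had a near-fixed protein-changing call. With unique calls of score 200 or more the count was 4 (3.05%, beside 3.7% of all genes). The 10 genes had a median length of 2409 bp, the other list genes 1437 bp and all protein-coding genes 1203 bp, and 7 of the 10 were longer than that last median.

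Mediator, which passes signals from activators to RNA polymerase II, had 3 of its 24 other genes hit. The counts per list, here and below, stand beside 5.6% of all protein-coding genes. They are small, and nothing is read from any single list. MED4 G208D was at 65% of 63 reads in RRC5 (52.0 to 76.7%), PGD1 G290R at 66% of 56 reads in RRC4 (52.2 to 78.2%), and NUT1 A586T at 52% of 78 reads in RRC2 (40.9 to 64.0%). RRC4 thus had missense changes in 2 Mediator genes, SRB2 and PGD1, on different chromosomes. It was also the pool with the most pool-specific calls, 262, beside 119 to 177 in the other mutant pools. SRB2 was chosen for its call in these lists, so nothing is read from the pair. In NuA4, the complex of Yng2, 1 of 12 others was hit, EAF1 E176K at 35% of 53 reads in RRC1 (23.1 to 50.2%). In INO80, the complex of Ies1, 1 of 14 others was hit, the DNA-binding subunit gene NHP10 with a frameshift at residue 7 of 203 in RRC5, at 42% of 50 reads (28.2 to 56.8%).

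In RSC, the complex of Sth1, RSC30 V594G was at 40% of 10 reads in RRC6, with a score of 15.1, 1 of 16 other genes. RSC30 also had a parental change, G571D, in all 9 lists at 90 to 100% of 29 to 56 reads. Among the 13 other genes of the Rpd3 complexes, UME6 A832E was at 19% of 26 reads in RRC6, with a score of 11.3. No protein-changing pool-specific call was seen in the other genes of the Chd1 and ISWI remodellers (8 genes), the SWR1 complex (14), SWI/SNF (12), SAGA (19), the Sir2 and Hst1-Sum1-Rfm1 silencing genes (7), the Paf1 complex (4), or in BRE5 and TUP1, the partners of Ubp3 and Cyc8.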

How the data were processed

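Genomic DNA of 9 libraries was sequenced with reads of 200 bp after 3 PCR cycles, per the labels' protocols. The authors deposited 17 lists of called variants, and the 9 full ones were used, with the 8 shortened ones as an alternative source. The deposited values are a call score, a read count (depth) and a percent, the share of reads carrying the alternate allele, per the file headers of the shortened lists. Per the submitters' processing notes, the tools include MACS2, Bowtie 1.0.0 and SAMtools 0.1.19, without their roles. Neither variant caller nor genome build is given in the sources used here. The 16 chromatin immunoprecipitation samples were not analysed here.

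The percent was rounded down (4267 of 4267 calls with up to 100 reads fit this, and 3332 fit rounding to the nearest), so alternate reads were recovered as the fewest that give it. Shares carry exact 95% Clopper-Pearson intervals. Pool-specific calls had 10 or more reads and no parental call with the same position and alleles. Each pool is 1 library, so no test across samples was made. Protein lengths were derived from gene lengths in the RefSeq table of assembly R64. There the annotated residue matched the position at 846 of 858 single-base coding effects compared, and at 11 of 11 compared in the 10 genes. The residues of SRB2, whose gene length is not a multiple of 3, and of the IES1 deletion were not compared. The named genes are all 10 members, the other genes of the 13 lists that held a pool-specific protein change, and calls needed to place a member's share. Members, lists and thresholds were chosen with earlier results of these data known. Scripts ran in Python 3.11.15 with SciPy 1.17.1, NumPy 2.4.6 and Matplotlib 3.10.9, and were checked on simulated data. Alternatives covered depth, score, share limits, single-base calls, wider parental matches, the other mutant lists and the shortened lists.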

Additional observations from a re-analysis of the deposited data

How the results depend on the processing

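The 4 near-fixed calls stayed at 4 with shares of 80% or 95%, no minimum depth, 20 reads or a score of 200. They also stayed at 4 with a match within 5 bases, absence from the other 7 mutant lists or the shortened lists. With single-base calls only they were 3, since IES1 is a deletion. These 4 calls had shares of 98 to 100%, 44 to 72 reads and scores of 214 to 222, each in 1 list. The limits on share, depth, score and other lists could therefore not remove them. The genes were chosen with these calls known, so the unchanged count is no support. The 4 calls whose interval held 50% became 2 with 20 reads or more and 2 with a score of 200 or more, which remove both CYC8 calls. The 7 other regulator genes became 4 with a score of 200 or more. Protein-changing calls numbered 8 or 9. All 18 alternative values of the 9 shares were unchanged. For those that used the most alternate reads, this was fixed in advance. At depths up to 100 reads, only 1 read count gives each printed percent. The other alternatives took the percent from the shortened lists, which belong to the same libraries and are no independent check. The same-base share of 67.9% became 71.1% with no minimum score. No paired analysis was possible because each pool is 1 library and the results come from no test, and for the same reason no library could be left out. Depths of 14 and 18 reads limit both CYC8 shares, and the labels give no clone numbers.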

Other observations

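RRC4 and RRC7 had calls in different members on the same chromosomes. No background of such distances was computed, so nothing is read from them. CHD1 W1404* in RRC4 was 39.4 kb from UBP3 E751K in RRC7 on chromosome 5. SRB2 S53F in RRC4 was 94.3 kb from YNG2 C225Y in RRC7 on chromosome 8. No member call was shared between these pools other than those of CTR9. In the stricter set the deposited score reached at most 222 at the 10 calls with a share of 90% or more and up to 225 at the 463 calls under 90%, so the score alone does not order the near-fixed calls above the rest.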
